A study of Mus musculus with 14 samples.

Results

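The genes described here encode the subunits of the Polycomb repressive complexes PRC2 and PRC1, of the deubiquitinase complex PR-DUB, and an H3K27 demethylase. They were chosen by name, 38 genes in all, and every line of the 6 deposited lists whose gene symbol matched one of them was taken. Of the 38 genes, 14 had at least 1 line, with 21 lines between them, out of 10679 lines near 6687 genes in the lists as a whole.

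ATAC-seq, which uses the transposase Tn5 to tag accessible DNA for sequencing, was run on 500 sorted erythro-myeloid progenitors per sample, progenitors of red and myeloid cells, from the yolk sac of C57BL/6 mouse embryos at stage E10.5. Tie2 KO embryos (5 samples) were Ezh2fl/fl with a Tie2-CreTg/+ transgene, Vav KO embryos (3 samples) were Ezh2fl/fl with Vav-CreTg/+, and Tie2 WT embryos (3 samples) were Ezh2fl/fl with no Cre transgene, labelled Tie2-Cre+/+. The floxed Ezh2 allele was therefore shared by all groups, and a further 3 Vav WT samples (Ezh2fl/fl; Vav-Cre+/+) appear in no list. Tie2-Cre acts in endothelial cells and their blood progeny, and Vav-Cre acts in blood cells, so each knockout is limited to the cells its driver reaches.

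The lists hold regions that the authors called higher or lower between Tie2 KO and Tie2 WT, between Vav KO and Tie2 WT, and between Tie2 KO and Vav KO. Nearly every listed region covers a gene start or ends within 5 kb upstream of one, and the smallest absolute log2 fold change is 0.58. Each line carries the authors' log2 fold change and adjusted p-value for the region, but no value per sample, so the depth of the samples is unknown and the spread between embryos cannot be shown. A difference in the share of cells that open a region cannot be told apart from a difference in accessibility per cell. The controls of Vav KO here are Tie2 WT embryos, so for that comparison genotype and Cre line cannot be told apart.

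PRC2 carries the methyltransferase Ezh2 or Ezh1 on a core of Eed, Suz12 and the histone-binding Rbbp4 or Rbbp7, and methylates histone H3 at K27. PRC1 carries the ubiquitin ligase Rnf2 or Ring1 paired with 1 of 6 Pcgf proteins, and marks histone H2A with ubiquitin. Canonical PRC1 holds a Cbx protein that binds the PRC2 mark together with a Phc protein, whereas variant PRC1 holds Rybp or Yaf2 and can be brought to unmethylated CpG islands by Kdm2b. PR-DUB removes the ubiquitin that PRC1 adds, and Kdm6b removes methyl groups from H3K27. In blood, Polycomb proteins are known for keeping developmental genes silent and for the maintenance of progenitors.

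The complexes differed in how many of their genes were listed. In Tie2 KO against Tie2 WT, 4 of 38 genes had a higher region close by, compared with 11.5% of all protein-coding genes, and 0 had a lower one, compared with 2.51%. The 4 were Epop, Pcgf5, Cbx2 and Cbx8, of which 3 are among the 21 PRC1 genes and 1 is among the 13 PRC2 genes. In Vav KO against Tie2 WT, 3 of 38 (7.9%, against 5.29% of protein-coding genes) had a higher region and 4 of 38 a lower one, against 2.59%. The higher ones were Pcgf3, Pcgf5 and Cbx7 and the lower ones Pcgf6, Kdm2b, Bcor and Asxl2. All belong to PRC1 except Asxl2 of PR-DUB. In Tie2 KO against Vav KO, 10 of 38 genes (26.3%) had a higher region, against 11.1% of all protein-coding genes, and 0 had a lower one, against 6.35%. These 10 hold 8 of 21 PRC1 genes (38.1%) and 2 of 13 PRC2 genes (15.4%). Over all lists together, 11 of 21 PRC1 genes (52.4%) and 2 of 13 PRC2 genes (15.4%) had a region, against 26.8% of protein-coding genes. At an absolute log2 fold change of 1 or higher the 10 become 4 of 38, while the share of all protein-coding genes is 7.23%, and with regions over the gene start they become 1, with 5.42% of protein-coding genes. The genes were chosen with these lists known and the complexes are small, so the shares are given as a description with no test.

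**Figure D1:**
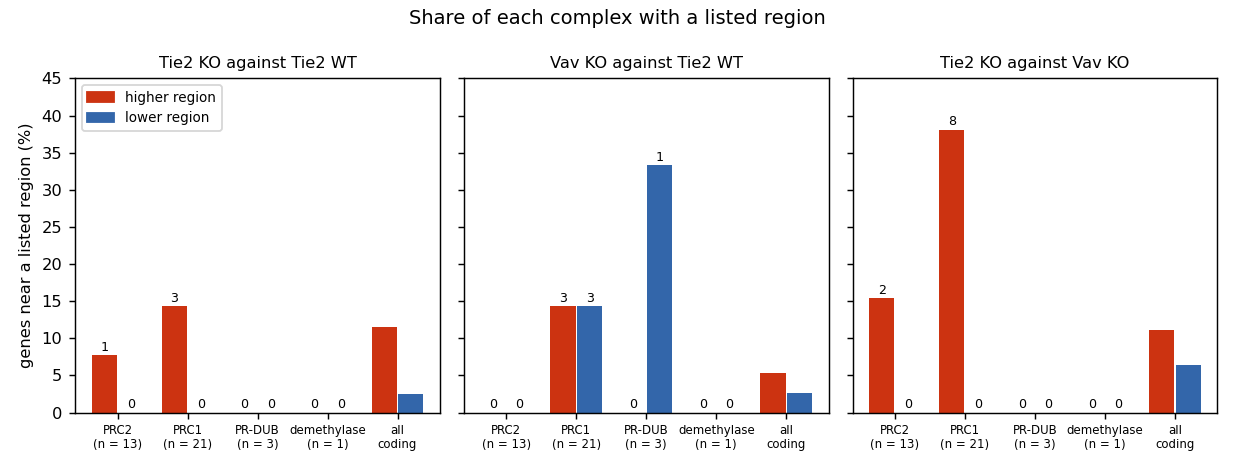
Share of the genes of each complex near a higher (red) or lower (blue) region in each comparison, in percent, with the number of genes above each bar and the share of all protein-coding genes at the right of each panel. The higher bar of PRC1 is 38.1% in Tie2 KO against Vav KO (all coding genes 11.1%) and 14.3% in Tie2 KO (11.5%) and in Vav KO (5.29%) against Tie2 WT. Its lower bar is 14.3% in Vav KO against Tie2 WT (2.59%). It is 0 in Tie2 KO against Tie2 WT (2.51%) and in Tie2 KO against Vav KO (6.35%). Each 14.3% is 3 genes of 21, and the 33.3% of PR-DUB is a single gene of 3.

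The members with no listed region included all those of the PRC2 core and the PRC1 ligases. None of the 6 PRC2 core genes (Ezh1, Ezh2, Eed, Suz12, Rbbp4 and Rbbp7) and neither of the 2 ubiquitin ligase genes of PRC1 (Ring1 and Rnf2) had a line in any list. Ezh2, the deleted gene, was thus not listed. Its absence does not check the deletion, because the lists cover only the surroundings of gene starts, hold no levels, and the labels do not say which exons are floxed. Over all lists, 26.8% of protein-coding genes had a region. Among genes that set the type of complex, 5 of 6 Pcgf genes (83.3%) were listed, Bmi1 being the exception. So were 4 of 9 other canonical PRC1 genes (44.4%: Cbx2, Cbx7, Cbx8 and Scmh1). Of variant PRC1 genes, 2 of 4 were listed (Kdm2b and Bcor), and of PRC2 accessory genes 2 of 7 (Aebp2 and Epop). The other canonical genes without a line were Cbx6, Phc1, Phc2, Phc3 and Scml2, and Rybp, Yaf2, Jarid2, Mtf2, Phf1, Phf19, Lcor, Bap1, Asxl1 and Kdm6b had none either. A gene without a line may have been untested, unchanged or below the authors' thresholds, which the lists do not tell apart.

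In 4 genes a listed region reached into the 250 bases before the gene start, and these stretches are shown because they are where the called difference meets the promoter. They are RefSeq sequences of GRCm38.p6, the assembly that mm10 is based on, read in the direction of the gene, and capitals mark bases inside the listed region. Bmi1, the Pcgf gene with no line, is shown for contrast and is all in lower case.
Pcgf6, chromosome 19 from 47050907 to 47051156, minus strand: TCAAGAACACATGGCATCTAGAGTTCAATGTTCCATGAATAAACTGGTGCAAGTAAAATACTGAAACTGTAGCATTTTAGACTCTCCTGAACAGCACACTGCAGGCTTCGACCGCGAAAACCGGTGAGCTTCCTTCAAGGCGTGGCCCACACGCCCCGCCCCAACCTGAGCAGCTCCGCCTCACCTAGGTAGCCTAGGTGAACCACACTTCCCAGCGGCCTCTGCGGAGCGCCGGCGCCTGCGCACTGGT
Cbx7, chromosome 15 from 79932647 to 79932896, minus strand: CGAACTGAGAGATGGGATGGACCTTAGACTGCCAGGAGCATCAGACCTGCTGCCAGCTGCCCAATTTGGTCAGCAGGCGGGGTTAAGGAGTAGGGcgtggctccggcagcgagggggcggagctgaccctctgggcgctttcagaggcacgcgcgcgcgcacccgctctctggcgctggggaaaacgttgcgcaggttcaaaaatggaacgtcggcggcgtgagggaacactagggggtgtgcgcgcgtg
Scmh1, chromosome 4 from 120405098 to 120405347, plus strand: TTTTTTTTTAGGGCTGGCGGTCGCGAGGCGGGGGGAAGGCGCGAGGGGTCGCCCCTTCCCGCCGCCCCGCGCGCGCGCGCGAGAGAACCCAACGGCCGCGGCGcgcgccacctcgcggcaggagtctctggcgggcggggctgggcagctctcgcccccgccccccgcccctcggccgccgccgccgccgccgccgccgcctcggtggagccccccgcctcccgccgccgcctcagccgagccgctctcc
Bcor, chromosome X from 12160356 to 12160605, minus strand: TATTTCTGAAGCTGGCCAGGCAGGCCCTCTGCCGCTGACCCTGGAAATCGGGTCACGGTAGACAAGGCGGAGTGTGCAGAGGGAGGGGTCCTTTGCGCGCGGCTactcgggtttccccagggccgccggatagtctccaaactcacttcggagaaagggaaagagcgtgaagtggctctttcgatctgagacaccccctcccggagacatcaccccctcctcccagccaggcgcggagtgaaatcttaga
Bmi1, chromosome 2 from 18676768 to 18677017, plus strand: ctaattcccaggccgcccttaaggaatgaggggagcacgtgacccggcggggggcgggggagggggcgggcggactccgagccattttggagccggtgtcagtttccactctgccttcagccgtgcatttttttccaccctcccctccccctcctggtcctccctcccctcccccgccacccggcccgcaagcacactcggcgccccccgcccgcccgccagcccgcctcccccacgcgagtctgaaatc

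The Pcgf6 window lies wholly inside the region, while 95 bases of the Cbx7 window, 103 of the Scmh1 window and 104 of the Bcor window do, in each case the far end from the gene start. CpG dinucleotides number 14 in the Pcgf6 window, 23 in Cbx7, 45 in Scmh1, 16 in Bcor and 21 in Bmi1, and the median over 17491 protein-coding promoters of this length is 10. Motif letters were searched on both strands. TGTGGT, the core bound by Runx factors, occurs once in the Pcgf6 window and in 12.5% of all protein-coding promoters. GCGGGAA, an E2F-type motif, occurs once in Scmh1 and in 4.94% of all, and CCAAT occurs once in Cbx7 and in 36.3%. CACGTG, the E-box, occurs once in Bmi1 and in 6.63% of all. AGATAA, a motif of Gata factors, occurs in 9.1% of all promoters and in none of the 5 windows. CCGGAAG, a motif of Ets factors, likewise occurs in 9.16% of all and in none of the 5. No searched motif overlaps another in these windows, and Bcor holds none of them.

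Of the PRC2 accessory genes, Aebp2 and Epop had higher regions in Tie2 KO. Aebp2, a zinc finger partner that stabilises PRC2, was higher in Tie2 KO than in Vav KO by 1.94 on the log2 scale (3.84-fold, adjusted p = 4.41e-05, from the authors' deposited table). The region lay on chromosome 6 from 140620902 to 140622100 (mm10), 562 bp upstream of the gene start, and 9.9% of the regions in that list had as large a fold change. Epop, which links PRC2 to elongin, had 1 region, on chromosome 11 from 97630402 to 97631600, that was listed with identical borders in 2 comparisons. In the authors' deposited table its log2 fold change was 1.27 in Tie2 KO against Tie2 WT (adjusted p = 2.24e-05) and 0.84 in Tie2 KO against Vav KO (adjusted p = 0.000129). Both comparisons use the same Tie2 KO samples. No PRC2 gene was listed in Vav KO against Tie2 WT.

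The Pcgf genes, which name the 6 kinds of PRC1, were listed in different comparisons and with both signs. Pcgf5, of a variant PRC1, had a higher region in both knockouts against Tie2 WT. The region starts at 36346202 on chromosome 19 in both lists and ends at 36347400 in Tie2 KO and 36347600 in Vav KO. In the authors' deposited table the log2 fold change was 0.95 (adjusted p = 5.13e-05) in Tie2 KO and 1.0 (adjusted p = 0.000169) in Vav KO. Pcgf5 was the only one of the 38 genes listed against Tie2 WT in both knockouts with the same sign, and the Tie2 WT samples are shared. The share of all protein-coding genes listed in both with the same sign was not counted. Taken singly, the shares were 11.5% higher and 2.51% lower in Tie2 KO, and 5.29% and 2.59% in Vav KO. The number for the members is thus a description only. Pcgf5 was not listed in Tie2 KO against Vav KO.

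Pcgf6, which joins PRC1 to the sequence-specific factors Mga and E2f6, was the only member whose region covered the gene start. In the authors' deposited table this region, on chromosome 19 from 47050602 to 47051900, was lower in Vav KO than in Tie2 WT, at -0.73 (adjusted p = 8.76e-05). The authors' deposited table also lists it, with identical borders, as higher in Tie2 KO than in Vav KO, at 0.68 (adjusted p = 7.46e-07). It was not listed in Tie2 KO against Tie2 WT. Its adjusted p of 7.46e-07 was the smallest of the 21 lines, though 93.8% of regions in that list had as large a fold change.

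Pcgf3, a close relative of Pcgf5, had a higher region in Vav KO than in Tie2 WT, with 1.86 on the log2 scale in the authors' deposited table (adjusted p = 0.000855), 1431 bp upstream of the gene start on chromosome 5. Pcgf1, of the variant PRC1 that holds Kdm2b and Bcor, had a region higher in Tie2 KO than in Vav KO, at 1.11 in the authors' deposited table (adjusted p = 0.000475). That region, 2889 bp upstream of Pcgf1, is also paired in the list with the homeobox gene Tlx2, at 4176 bp. Within 50 kb of the Pcgf1 start the same list held 5 regions, which besides Pcgf1 were paired with Tlx2, Lbx2 and Loxl3, with log2 fold changes up to 2.75 in the authors' deposited table. Pcgf2 (Mel18), a Pcgf of canonical PRC1, had a region higher in Tie2 KO than in Vav KO at 0.67 in the authors' deposited table (adjusted p = 2.68e-05), the smallest rise among the members. It lay 2804 bp upstream of Pcgf2 and covered the start of the proteasome gene Psmb3, so the lists do not say to which of these genes either region belongs.

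**Figure D2:**
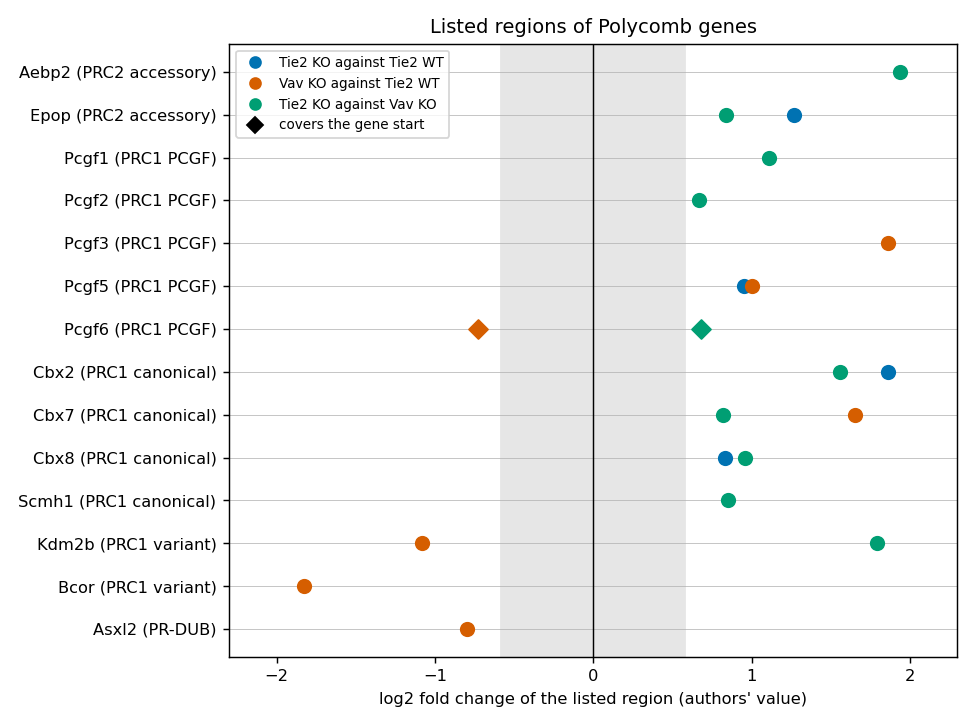
Authors' log2 fold change (x axis) of each listed region of the 14 genes with a line, by gene with its role (y axis) and coloured by comparison; diamonds cover the gene start and the grey band marks values too small to be listed. Points right of the band are higher and left of it lower in the first-named group; every lower point is Vav KO against Tie2 WT, at Pcgf6, Kdm2b, Bcor and Asxl2.

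The Cbx genes encode the subunits through which canonical PRC1 reads the PRC2 mark. Cbx2 and Cbx8 neighbour each other on chromosome 11, with starts 17892 bp apart, and both had higher regions in Tie2 KO against each of the other groups. Cbx2 had the largest rise of any member against Tie2 WT in Tie2 KO, 1.86 on the log2 scale or 3.63-fold in the authors' deposited table (adjusted p = 4.96e-06), which 3.8% of regions in that list reached. Against Vav KO its log2 fold change in the authors' deposited table was 1.56 (adjusted p = 0.000193). The region begins at 119020802 and ends at 119021900 in the list against Tie2 WT and at 119021800 in the list against Vav KO, over 1 kb upstream of the start. For Cbx8 the authors' deposited table gives 0.83 (adjusted p = 0.000467) against Tie2 WT and 0.96 (adjusted p = 1.82e-05) against Vav KO, about 3 kb upstream. The Cbx8 region against Vav KO was 1499 bp wide, the widest among the members, and contained the 999 bp region listed against Tie2 WT.

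Cbx7, the Cbx protein best known in blood stem cells, had a separate region in each of 2 lists. The region from 79936402 to 79937400 on chromosome 15, 3755 bp upstream, was higher in Vav KO than in Tie2 WT, with 1.65 on the log2 scale in the authors' deposited table (adjusted p = 2.29e-05). A region from 79932802 to 79933800, 155 bp from the start and reaching into the promoter printed above, was higher in Tie2 KO than in Vav KO, at 0.82 in the authors' deposited table (adjusted p = 0.000456). The regions lie 2602 bp apart, so Vav KO was on the higher side at the distant region and on the lower side at the near one. Scmh1, a canonical PRC1 partner, had a region ending 80 bp before the start that was higher in Tie2 KO than in Vav KO, at 0.85 in the authors' deposited table (adjusted p = 0.000382).

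Of the 4 members lower in Vav KO than in Tie2 WT, 2 were variant PRC1 genes. Bcor, the corepressor of the Pcgf1 complex, had the largest fall of any member, -1.83 on the log2 scale in Vav KO against Tie2 WT in the authors' deposited table (adjusted p = 0.000173), or 0.28-fold. Its region lay on chromosome X from 12160502 to 12161500, 146 bp from the start, and ranked 100 among the 630 lower regions of that list by size of fall. Kdm2b, whose CXXC zinc finger binds unmethylated CpG, had a region lower in Vav KO than in Tie2 WT at -1.08 in the authors' deposited table (adjusted p = 0.0016). A Kdm2b region higher in Tie2 KO than in Vav KO had 1.79 in the authors' deposited table (adjusted p = 0.000137). The regions run from 122990802 to 122991800 and from 122991302 to 122992300 on chromosome 5 and share 499 bp.

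Among the 38, PR-DUB had 1 listed gene of 3 (33.3%) over all lists, against 26.8% of protein-coding genes. Asxl2, the partner that activates the deubiquitinase Bap1, had a region lower in Vav KO than in Tie2 WT at -0.8 in the authors' deposited table (adjusted p = 0.000547), on chromosome 12 from 3425302 to 3426500. It ended 356 bp before the gene start, and 87.8% of lower regions in that list had as large a fall. Bap1 and Asxl1 had no line. Kdm6b, the only demethylase gene among the 38, had none either, and other demethylase genes are not described here.

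**Figure D3:**
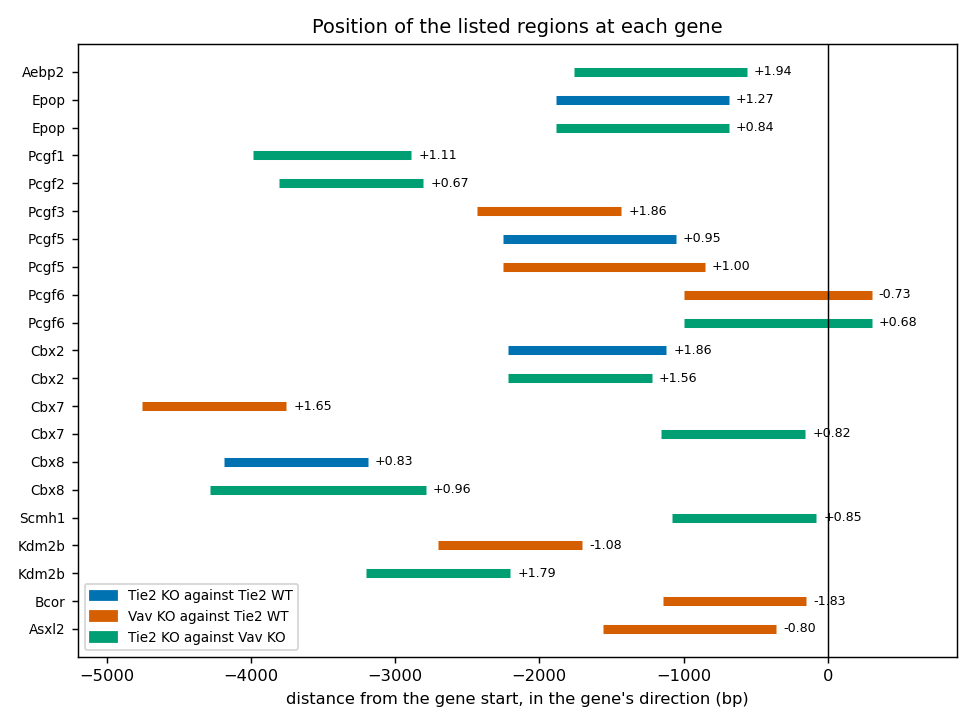
Position of each of the 21 listed regions relative to the start of its gene (x axis, bp, in the direction of the gene; the vertical line is the gene start), one bar per line, coloured by comparison, with the authors' log2 fold change at its right end. Only the Pcgf6 bars cross the gene start, and the bars of Epop, Pcgf5, Cbx2, Cbx8 and Pcgf6 coincide or nest between comparisons while those of Cbx7 are apart.

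Where a region is listed in a pair of comparisons that share a group, the remaining comparison follows from the other two. Adding or subtracting the log2 fold changes over the shared group gives the comparison in which the region was not listed, provided that the authors scaled the libraries alike in each, which no source used here states. For the identical regions this gives -0.05 for Pcgf6 in Tie2 KO against Tie2 WT and 0.43 for Epop in Vav KO against Tie2 WT. For near-identical regions it gives -0.05 for Pcgf5 in Tie2 KO against Vav KO and 0.3 for Cbx2 in Vav KO against Tie2 WT. All of these are smaller in size than the least listed value of 0.58. At Kdm2b, where only 499 bp are shared, it gives 0.71 for Tie2 KO against Tie2 WT. These sums carry no error of their own and are no test.

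As a group the listed members were moderate within their lists. Against Vav KO the 10 regions higher in Tie2 KO had a median log2 fold change of 0.905, while that of all 2873 higher regions was 1.16. Against Tie2 WT, the median was 1.11 for the 4 regions higher in Tie2 KO and 1.02 for all 2959. In Vav KO against Tie2 WT the median was 1.65 for the 3 higher regions and 1.35 for all 1313, and -0.94 for the 4 lower regions and -1.29 for all 630. Of the 21 lines, 2, both at Pcgf6, covered a gene start, 8 others ended within 1 kb and 11 lay farther upstream. In the list of Tie2 KO against Tie2 WT, 0 of the 4 member regions covered a gene start, against 55.6% of all higher regions, and in that of Tie2 KO against Vav KO 1 of 10, against 43.8%. In Vav KO against Tie2 WT it was 0 of 3 higher regions, against 16.8%, and 1 of 4 lower regions, against 16.3%, and the median distance of the lower ones was 251 bp, with 1078.5 bp for the list. The member regions were at most 1499 bp wide. Their median width was 1149 bp in Tie2 KO against Tie2 WT and 1049 bp in Tie2 KO against Vav KO, with 1599 and 1299 bp for all higher regions of those lists. The higher members of Vav KO against Tie2 WT had a median width of 999 bp, with 1099 bp for their list, and the lower ones 1099 bp, with 999 bp for theirs.

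**Figure D4:**
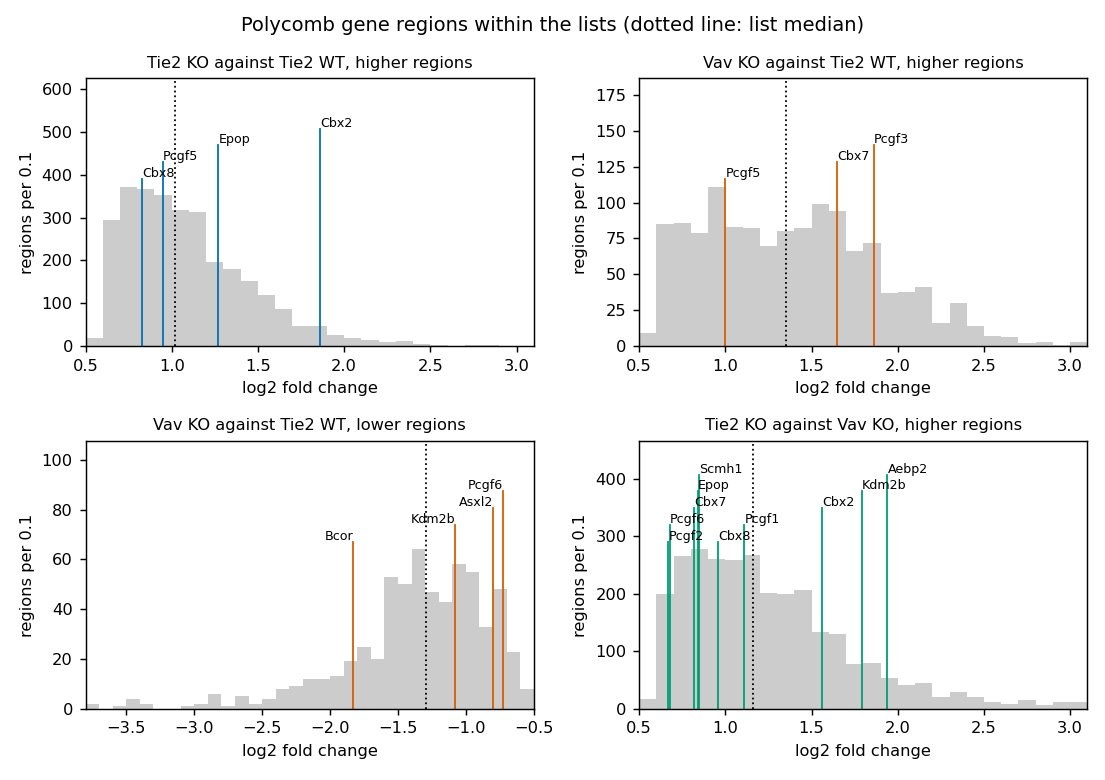
Distribution of the authors' log2 fold change (x axis) over all regions of the 4 lists that hold a Polycomb gene (grey, number of regions per 0.1), with each member's region as a coloured line and the list median dotted. Cbx2 stands at 1.86 in the list of Tie2 KO against Tie2 WT, and 7 of the 10 members in that of Tie2 KO against Vav KO stand below the list median; 17 regions of Vav KO and 23 of Tie2 KO against Vav KO lie beyond the right edge.

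Of the 32 members with a promoter in the RefSeq table, 11 were listed and 21 were not. In the 250 bases before the gene start the median CpG count was 22 in listed members and 23 in members with no line. It was 14 in protein-coding genes near any listed region and 10 in all protein-coding genes. The median GC content was 66.0%, 67.6%, 60.0% and 55.2% in the same order. These windows are chosen unlike each other. Genes in the lists were read at the RefSeq start nearest the authors' gene start, and all other genes at their first RefSeq start. With the first RefSeq start for all members, the median was 17 CpGs in listed members and 23 in members with no line. The ranges overlap, from 1 (Aebp2) to 45 CpGs in listed members and from 7 to 45 in the others.

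Further genes of the pathway and of opposing complexes give the setting. Of 39 other Polycomb-associated genes, 7 (17.9%, against 11.5% of protein-coding genes) had a higher region and 3 (7.7%, against 2.51%) a lower one in Tie2 KO against Tie2 WT. For Vav KO against Tie2 WT they numbered 1 higher (2.6%, against 5.29%) and 5 lower (12.8%, against 2.59%). In Tie2 KO against Vav KO they numbered 6 higher (15.4%, against 11.1%) and 3 lower (7.7%, against 6.35%). E2f6, a Pcgf6 partner, had regions that in Tie2 KO were higher than in Tie2 WT (0.84 on the log2 scale, adjusted p = 1.33e-06) and than in Vav KO (1.08, adjusted p = 8.09e-05), per the authors' deposited table. Mga, another Pcgf6 partner, had a region higher in Vav KO than in Tie2 WT at 2.32 in the authors' deposited table (adjusted p = 3.34e-06). Yy1, the mammalian relative of the fly Polycomb recruiter Pho, had lower regions in both knockouts, at -1.88 in Tie2 KO and -2.88 in Vav KO against Tie2 WT in the authors' deposited table. Ogt, which is also a PR-DUB partner, had a region lower in Vav KO than in Tie2 WT (-0.77) and one higher in Tie2 KO than in Vav KO (1.06) in the authors' deposited table, so that Vav KO was on the lower side in both lists, as at Pcgf6 and Kdm2b.

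Genes of complexes that oppose Polycomb were counted in the same way. Of 25 genes of the MLL/COMPASS and NSD methyltransferases and their partners, 0 had a higher region and 6 (24.0%, against 6.35% of protein-coding genes) a lower one in Tie2 KO against Vav KO. The 6 were Cxxc1, Dpy30, Hcfc2, Nsd2, Nsd3 and Pagr1a, at log2 fold changes of -0.62 to -1.4 in the authors' deposited table. Against Tie2 WT these methyltransferase genes numbered 0 higher (against 11.5%) and 1 lower (4.0%, against 2.51%) in Tie2 KO. In Vav KO they numbered 2 higher and 2 lower (8.0% each, against 5.29% and 2.59%). Of 28 SWI/SNF remodeller genes, 2 were higher (7.1%, against 11.5%) and 3 lower (10.7%, against 2.51%) in Tie2 KO against Tie2 WT. With Vav KO against Tie2 WT 1 was higher (3.6%, against 5.29%) and 0 lower (against 2.59%), and in Tie2 KO against Vav KO 1 was higher (3.6%, against 11.1%) and 4 lower (14.3%, against 6.35%). The lists were described by counts, and no difference between them was tested.

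Genes that mark other yolk sac cells were listed in the same comparisons as the Polycomb genes. In Tie2 KO against Tie2 WT, 6 of 10 yolk sac mesoderm markers, 2 of 10 endoderm markers and 4 of 10 endothelial markers had a higher region, against 11.5% of protein-coding genes, and 0, 0 and 1 a lower one, against 2.51%. In Tie2 KO against Vav KO the higher counts were 6, 4 and 3 of 10, against 11.1% of protein-coding genes, with 0 lower in each, against 6.35%. Both endothelial counts include Tek, the gene also named Tie2. Its region against Tie2 WT was 12899 bp wide, at 2.9 in the authors' deposited table. Against Vav KO it was 12299 bp wide, at 2.92, and each was the widest higher region of its list. Only Tie2 KO carries the Tie2-Cre transgene, and the part of the transgene in the Tek regions was not tested. In Vav KO against Tie2 WT the mesoderm markers had 2 higher and 1 lower, endoderm markers 0 and 1, and endothelial markers 0 and 0, against 5.29% and 2.59% of protein-coding genes. Of 10 erythro-myeloid progenitor markers, Gata2 alone was listed. It was lower in Vav KO than in Tie2 WT (10.0% of the markers, against 2.59% of protein-coding genes). In Tie2 KO it was higher than in Vav KO (10.0%, against 11.1%). The lists hold differences and no levels, so the sorted cell type could not be checked against its markers, and the part of other cells in the Polycomb gene regions was not tested.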

How the data were processed

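Per the submitters' processing notes the build was mm10, and the tools, named without saying what each did, were HOMER 4.10, MACS2 2.1.2, Picard, SAMtools 1.3.1, Bowtie2 and FastQC. How the Tn5 shift, duplicates and scaling were handled, and which test was run, is not stated in them. The 6 deposited lists cover 3 comparisons, and TKO, TWT and VKO in their names were taken to mean Tie2 KO, Tie2 WT and Vav KO. Per the file headers, the authors deposited for each region its log2 fold change with an adjusted p-value, and other measures in bp (width, distance to the gene). No values per sample were used, so n and SD cannot be given.

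Lines were matched by symbol, and for all 14 genes the identifier was checked against RefSeq (GRCm38.p6) and was the same. Shares are over 21896 protein-coding RefSeq genes, though which regions were tested is unknown. Of the lists' genes with a RefSeq promoter, 80.4% start at the same base in both annotations. Every member with a line is named. Members and lists were chosen with earlier results of these data known. On simulated data only the count of CpGs and the matching of member symbols were tried. The counts by complex and the shares were not. Python 3.11.15 and pandas 2.3.3 were used. Alternatives changed the adjusted p, fold change, distance, pairing, width, promoter start and background.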

Additional observations from a re-analysis of the deposited data

Results flagged for a closer look

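At 5 members a region listed for a knockout against Tie2 WT overlapped one that the authors' own test called different between Tie2 KO and Vav KO. In the authors' deposited table the log2 fold changes of that test were 1.79 at Kdm2b, 1.56 at Cbx2, 0.96 at Cbx8, 0.84 at Epop and 0.68 at Pcgf6. Cbx2, Cbx8 and Epop in Tie2 KO were also higher than in Tie2 WT, while Kdm2b and Pcgf6 were lower in Vav KO than in Tie2 WT. The 5 were taken because they are in both lists, the comparisons share samples, and Vav KO has no control of its own line in the lists. How many of all listed genes have such an overlap was not counted, so the 5 are not shown to be more than usual. The test is of the knockout groups against each other, which are both Ezh2fl/fl with Cre and differ in the Cre line. Where each driver acts cannot be told apart in it from other differences between the lines.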

How the results depend on the processing

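The counts of members did not move by more than 1.5 times with an adjusted p of 0.01 or lower, with regions narrower than 3 kb, with regions paired with 1 gene, or with matching by gene identifier, the last chosen after seeing the data. With an absolute log2 fold change of 1 or higher, higher members numbered 2 (PRC1 1) in Tie2 KO against Tie2 WT and 4 (PRC1 3, PRC2 1) in Tie2 KO against Vav KO, and lower members 2 in Vav KO against Tie2 WT. Within 1 kb of the gene start, higher members numbered 1 (PRC1 0) in Tie2 KO against Tie2 WT, 1 (PRC1 1) in Vav KO against Tie2 WT and 5 (PRC1 3) in Tie2 KO against Vav KO. With regions over the gene start, higher members numbered 0 (PRC1 0, PRC2 0), 0 (PRC1 0) and 1 (PRC1 1, PRC2 0) in the same order, and lower members 1 in Vav KO against Tie2 WT. These alternatives keep fewer regions by construction, and the share of all protein-coding genes near a higher region falls with them. In Tie2 KO against Vav KO that share is 7.23% at the larger fold change, 8.12% within 1 kb and 5.42% over the gene start. In the same order it is 6.2%, 9.15% and 7.1% in Tie2 KO against Tie2 WT, and 3.79%, 2.25% and 0.881% in Vav KO against Tie2 WT. The share near a lower region in Vav KO against Tie2 WT is 1.89% at the larger fold change and 0.411% over the gene start. With the first RefSeq start of each gene, chosen after seeing the data, the median CpG count of the listed members was 17 in place of 22. Members with no line were read at their first RefSeq start throughout, with a median of 23. Over all genes of the RefSeq table, the share near a higher region was 5.66% in place of 11.5% in Tie2 KO against Tie2 WT, 2.69% in place of 5.29% in Vav KO against Tie2 WT and 5.51% in place of 11.1% in Tie2 KO against Vav KO. No paired analysis was possible because the lists carry no values per sample, and for the same reason no replicate could be left out. Region sequences were not used, as no genome was at hand. Depth is unknown, so a gene without a line is not shown to be unchanged.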
